A study of Mus musculus with 4 samples.

Results

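The genes followed here are 34 genes of mitosis and the G2 phase of the cell cycle, taken as a named list and found on the arrays through the RefSeq accession of each probe. Of the 34, 32 had a matched probe, and Cenpf and Mki67 were not analysed here. The 32 were part of 21986 genes tested, and each of them was well above background on 8 of 8 arrays and saturated on 0. Where a gene had several probes, the probe of highest mean level was used.

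Transcripts were measured in whole gonads of wild-type male embryos of the mouse line MCH on 1-colour Agilent arrays. The 4 groups were embryonic day 12.5 (E12.5) and the following days E13.5, then E14.5, then E15.5, each with 2 arrays from biological duplicates, per the series text, and no group carried a treatment or an introduced allele. Levels below are log2 of the processed signal minus the 75th percentile of that signal on the same array, so they describe 1 probe across arrays and do not rank genes. Changes are differences of stage means on that log2 scale, later minus earlier, with the standard error (SE) of limma for 2 arrays a stage.

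Cells that have copied their DNA pass through G2 and enter mitosis when B-type cyclins activate the kinase Cdk1. Most of the genes listed here are transcribed late in the cycle. Protein complexes built on MuvB, with B-Myb and FoxM1, act through cell cycle homology elements near the starts of such genes. Many of these promoters also hold CCAAT boxes. In the fetal testis, Sertoli cells keep dividing over these days while male germ cells stop dividing and enter mitotic arrest. The RNA came from whole gonads, so fewer cells in G2 and mitosis and less RNA per such cell cannot be told apart.

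The arrays lay on 3 slides. The first arrays of E12.5 and E13.5 shared slide 1, their second arrays shared slide 2, and the 4 arrays of the later stages shared slide 3. E13.5 could thus be compared with E12.5 within slides 1 and 2, and E15.5 with E14.5 within slide 3. In the comparisons of E14.5 with E13.5 and of E15.5 with E12.5, slide and stage cannot be told apart. Probes well above background ranged from 24810 to 28724 of 41174 an array, and 75th percentiles of the signal from 802 to 1784. All 9 Sertoli cell markers tested, Sox9, Amh and Dhh among them, and 9 of 10 germ cell markers, Ddx4 and Dazl among them, were above background on 8 arrays.

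The promoters of the members were taken from RefSeq (GRCm38.p6), as windows of 250 bases before and 50 bases after the start, which 28 of the 34 members had. The motifs counted, on both strands and with overlaps between motifs allowed, were TTTGAA and TTTAAA (cell cycle homology elements), CCAAT, and GCGGGAAA or GGCGGGAA (E2F motifs). TTTGAA or TTTAAA stood in the windows of 23 of 28 members (82.1%), against 27.6% of all 32851 windows in the table. CCAAT stood in 21 of 28 (75%), against 37.4% of all windows, and at least 2 copies stood in 14 of 28 members, against 11.7%. The E2F motifs stood in 0 of 28, against 2.73% of all windows. A match is a description of the letters and not evidence of a bound site.

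Windows of 5 members are shown because these genes carry the results below: Ccnb2, Ccnb1 and Top2a fell over the 4 stages and hold both kinds of motif, Nuf2 fell and holds neither, and Cdk1 holds both and was not called. They lie on the minus strand at chr9:70421505-70421804, chr13:100786437-100786736, chr11:99024140-99024439, chr1:169531415-169531714 and chr10:69352863-69353162, in the order printed, each read 5′ to 3′ with the motifs in capitals.
Ccnb2: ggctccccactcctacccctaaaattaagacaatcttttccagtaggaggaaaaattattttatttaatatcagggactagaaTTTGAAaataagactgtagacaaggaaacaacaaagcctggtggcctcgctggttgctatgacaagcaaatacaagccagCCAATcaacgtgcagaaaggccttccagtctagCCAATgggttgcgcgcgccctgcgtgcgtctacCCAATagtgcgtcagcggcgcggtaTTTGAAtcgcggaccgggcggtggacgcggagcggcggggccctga
Ccnb1: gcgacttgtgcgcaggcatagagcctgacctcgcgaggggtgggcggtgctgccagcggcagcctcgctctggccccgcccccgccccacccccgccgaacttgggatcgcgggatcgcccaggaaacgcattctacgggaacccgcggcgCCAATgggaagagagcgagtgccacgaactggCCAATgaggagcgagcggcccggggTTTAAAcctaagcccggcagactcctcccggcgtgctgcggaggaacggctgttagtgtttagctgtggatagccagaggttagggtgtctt
Top2a: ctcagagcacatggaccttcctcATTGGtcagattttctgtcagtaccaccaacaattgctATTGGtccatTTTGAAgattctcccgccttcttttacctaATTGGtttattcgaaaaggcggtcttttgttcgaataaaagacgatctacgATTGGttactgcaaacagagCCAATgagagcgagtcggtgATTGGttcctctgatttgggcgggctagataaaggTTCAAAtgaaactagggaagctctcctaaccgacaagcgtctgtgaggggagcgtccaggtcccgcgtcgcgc
Nuf2: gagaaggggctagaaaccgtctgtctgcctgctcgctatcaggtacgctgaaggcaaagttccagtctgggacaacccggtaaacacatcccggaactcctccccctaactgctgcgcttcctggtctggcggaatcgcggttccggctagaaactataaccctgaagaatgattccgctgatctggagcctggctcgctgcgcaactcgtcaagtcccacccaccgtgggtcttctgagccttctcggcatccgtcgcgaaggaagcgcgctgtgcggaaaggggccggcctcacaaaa
Cdk1: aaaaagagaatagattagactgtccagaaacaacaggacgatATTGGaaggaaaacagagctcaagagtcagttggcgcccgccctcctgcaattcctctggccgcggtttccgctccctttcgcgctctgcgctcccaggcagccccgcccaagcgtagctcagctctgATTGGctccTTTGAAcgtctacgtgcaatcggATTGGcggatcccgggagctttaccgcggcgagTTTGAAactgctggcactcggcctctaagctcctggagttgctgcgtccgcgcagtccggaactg

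In Ccnb2 the 3 CCAAT copies began 87, 54 and 21 bases before the start, which is 33 bases apart each time, and a TTTGAA began at base 5 after it. In Ccnb1 both CCAAT copies, 99 and 67 bases before the start, lay 32 bases apart, upstream of a TTTAAA. In Cdk1 the CCAAT copies nearest the start lay 32 bases apart as well, and the next copy lay 128 bases further upstream. Top2a held 6 CCAAT copies, which lay 38, 40, 51, 20 and 20 bases apart, so this spacing was not shared by all. Among members tested that had a window, TTTGAA or TTTAAA stood in 5 of 6 that fell between E12.5 and E15.5 and in 16 of 20 that were not called, and CCAAT stood in 5 of 6 and in 14 of 20. The difference between these shares was not tested.

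At E13.5 nearly every member was lower than at E12.5, by a small amount, and 1 passed the test. Changes were below 0 for 31 of 32 members, with a median of -0.46, against -0.057 for all genes tested. With other scalings or background corrections, 29 to 31 were below 0. The test, limma with Benjamini-Hochberg adjustment over all 21986 genes, called 1 member lower and 0 higher at an adjusted p under 0.05, against a background of 1.3% of all genes lower and 2.68% higher. Both E13.5 arrays lay below both E12.5 arrays for 24 of 32 members, against 29% of all genes. Genes of 1 tissue are not independent, and no list test was made.

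The called member was Melk, a kinase gene active in dividing progenitor cells. Its level was 1.28 and 1.22 at E13.5, against 2.11 and 2.06 at E12.5. Both E13.5 arrays lay well below both E12.5 arrays, and the duplicates were close. The change was -0.83 ± 0.16 (SE, n = 2 arrays a stage; adjusted p = 0.047, limma), which is 1.78-fold lower. This call was just inside the threshold: it was lost with the slide as a replicate block, where the count of members called was 0, and without any 1 of the 8 arrays. Later the level of Melk was 1.72 and 1.72 at E14.5 and 1.65 and 1.79 at E15.5, between the values of E13.5 and E12.5.

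Within slides, the median change of the members was -0.42 on slide 1 and -0.48 on slide 2. Changes were below 0 for 31 of 32 on slide 1 and for 30 of 32 on slide 2, and for 30 on both. The only member above 0 on both slides was Mad2l1. The medians of all genes were -0.061 on slide 1 and -0.044 on slide 2.

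**Figure D1:**
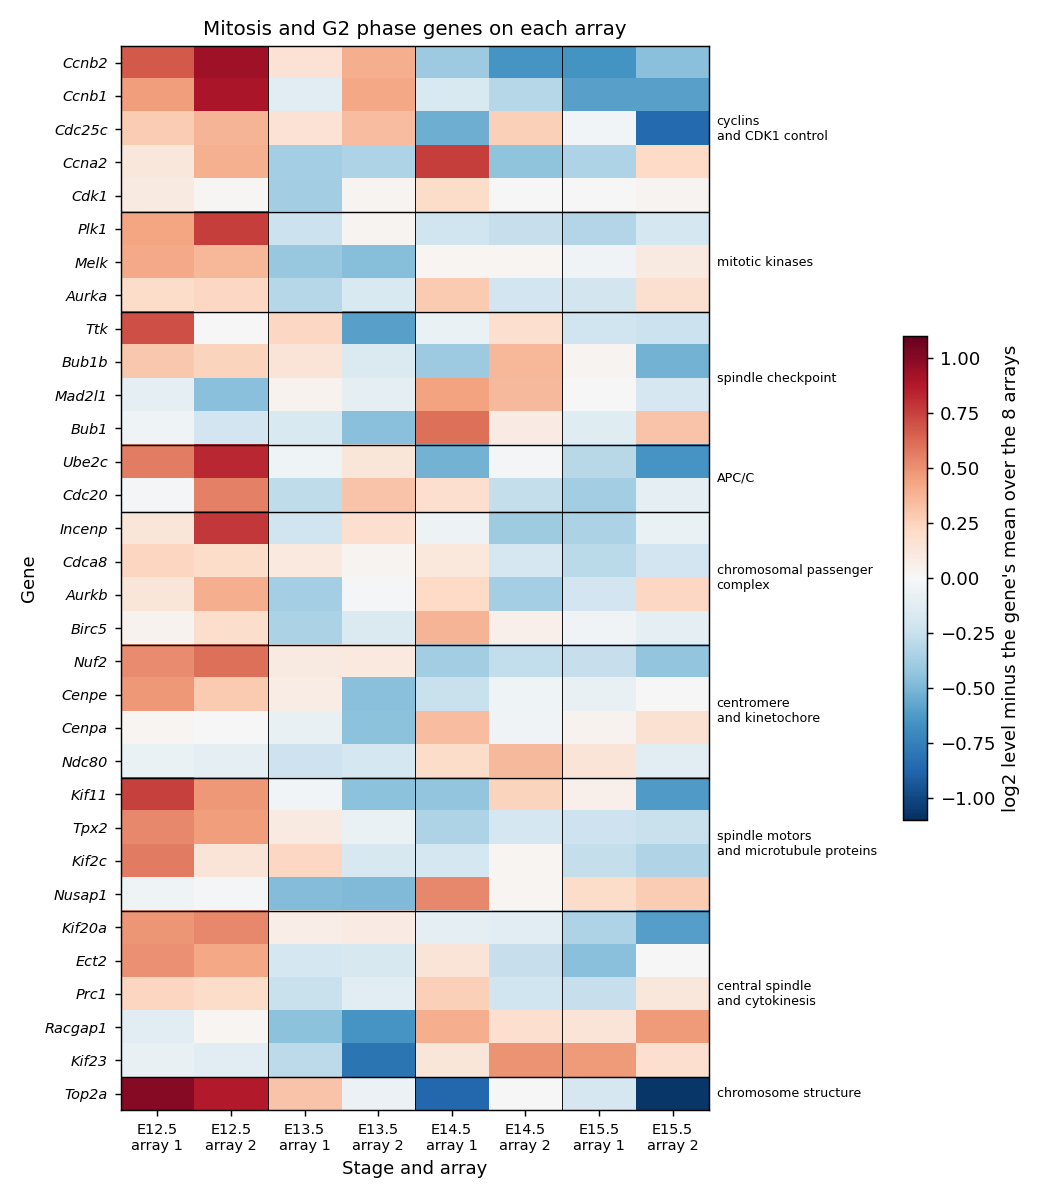
Level of each of the 32 members (rows, grouped by role) on each of the 8 arrays (columns), as log2 level minus the gene's own mean over the arrays; red is above and blue below that mean. Ccnb2, Ccnb1, Ube2c and Top2a are reddest at E12.5, and Mad2l1, Racgap1 and Kif23 are not.

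Over the whole span, at E15.5 against E12.5, 8 of 32 members fell, 0 rose and 24 were not called. Those that fell were Ccnb2, Ccnb1, Ube2c, Top2a, Kif20a, Nuf2, Plk1 and Tpx2. Of all genes, 17.4% were called lower and 17.6% higher, so 8 of 32 stands beside a large background. The median change was -0.49, against -0.071 for all genes, and 25 of 32 changes were below 0, or 23 to 25 with other scalings or background corrections. The arrays of E15.5 lay below those of E12.5 without overlap for 22 of 32 members, against 39.3% of all genes. Most of these calls were lost without E12.5 array 2 or without E15.5 array 2, where fewer of all genes were called as well. The members' median change was -0.44 without the first of these arrays and -0.50 without the second. Ccnb2 alone kept its call under all 18 alternatives run for it.

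Among the cyclins and their kinase, the B-type cyclins fell and Cdk1 was not called. Ccnb2, a cyclin that activates Cdk1, had levels of 5.19 and 5.44 at E12.5, 4.67 and 4.91 at E13.5, 4.11 and 3.86 at E14.5, and 3.86 and 4.05 at E15.5. The arrays of E12.5, E13.5 and E14.5 did not overlap, in falling order, whereas those of E14.5 and E15.5 did. The change at E15.5 against E12.5 was -1.36 ± 0.21 (SE, n = 2 arrays a stage; adjusted p = 0.0038, limma), 2.57-fold lower.

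Ccnb1, the other B-type cyclin of this list, had levels of 2.41 and 2.85 at E12.5, 1.84 and 2.37 at E13.5, 1.78 and 1.64 at E14.5, and 1.35 and 1.36 at E15.5. Both E15.5 arrays lay below every other array. The change at E15.5 against E12.5 was -1.28 ± 0.25 (adjusted p = 0.010, limma, n = 2 arrays a stage). Over that span the probes of Ccnb1 differed in size: 2 others gave -0.51 and -0.74. At E14.5 against E13.5 they differed in sign, with -0.39 for the probe used and 0.20 and 0.059 for the others. Without E12.5 array 2 or without E15.5 array 2, Ccnb1 was not called.

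Cdk1, the kinase that drives entry into mitosis, was at 3.22 and 3.14 at E12.5, 2.74 and 3.16 at E13.5, 3.32 and 3.13 at E14.5, and 3.13 and 3.15 at E15.5. Its arrays overlapped in each of the 4 comparisons, and the change over the span was -0.041 ± 0.21, or 0.074 under quantile normalization. A dimmer probe of Cdk1, above background on 5 arrays, gave -0.88. Ccna2, the cyclin A gene whose product partners Cdk2 and Cdk1, changed by -0.32 ± 0.41, and its E14.5 arrays were far apart, at 4.38 and 3.17. Cdc25c, which encodes a phosphatase that activates Cdk1, changed by -0.77 ± 0.36, and neither gene was called.

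Of the mitotic kinases, Plk1 fell and Aurka and Melk were not called over the span. Plk1, the polo-like kinase of mitotic entry and spindle assembly, had levels of 4.16 and 4.49 at E12.5, 3.49 and 3.76 at E13.5, 3.51 and 3.47 at E14.5, and 3.41 and 3.54 at E15.5. All 6 later arrays lay below both E12.5 arrays, and the arrays from E13.5 on overlapped. The change was -0.85 ± 0.20 (adjusted p = 0.019, limma, n = 2 arrays a stage). Aurka, a spindle pole kinase, was at 4.09 and 4.47 at E15.5, against 4.49 and 4.51 at E12.5, a change of -0.22 ± 0.24. Plk1 was not called without E12.5 array 2, without either E15.5 array or with arrays scaled to the median.

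Ubiquitin-dependent destruction of cyclins is set by the anaphase-promoting complex (APC/C). Ube2c, its ubiquitin-conjugating enzyme, had levels of 3.33 and 3.60 at E12.5, 2.72 and 2.91 at E13.5, 2.25 and 2.76 at E14.5, and 2.46 and 2.12 at E15.5. Both E12.5 arrays were the highest, and the E14.5 and E15.5 arrays overlapped. It fell by 1.17 ± 0.25 on the log2 scale at E15.5 against E12.5 (adjusted p = 0.013, limma, n = 2 arrays a stage). Cdc20, an activator of the APC/C, was at 5.04 and 5.32 at E15.5, against 5.40 and 5.98 at E12.5, and its change of -0.51 ± 0.31 was not called. Ube2c was not called without E12.5 array 2 or without E15.5 array 2.

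The spindle checkpoint holds the APC/C until chromosomes are attached, and 0 of its 4 genes were called in any comparison or in the test over all stages. Of all genes, 17.4% were called lower and 17.6% higher over the span, and 31.1% over all stages. With 4 genes, a count of 0 does not set the checkpoint apart from all genes. Ttk, the Mps1 kinase gene, had the largest change of the 4 over the span: its level was -2.22 and -2.24 at E15.5, against -1.29 and -2.0 at E12.5, a change of -0.58 ± 0.35. Mad2l1, which encodes Mad2, had the smallest, 0.19 ± 0.20. Its levels were 1.81 and 1.46 at E12.5, 1.96 and 1.82 at E13.5, 2.36 and 2.27 at E14.5, and 1.91 and 1.73 at E15.5. The E14.5 arrays were the highest of the 8. Bub1 and Bub1b, kinase and kinase-like genes of the checkpoint, changed by 0.22 and -0.52 over the span.

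**Figure D2:**
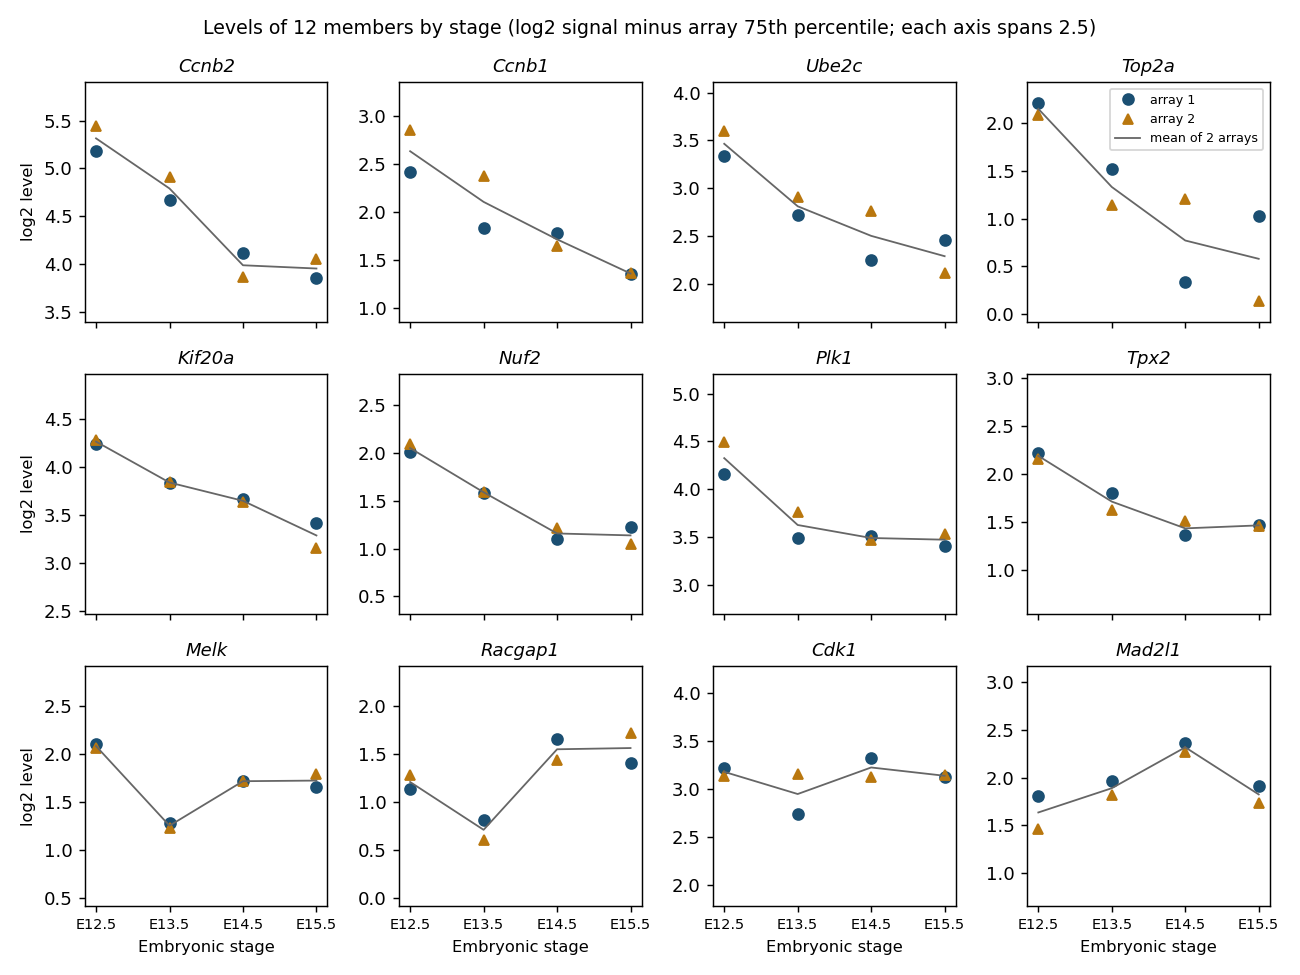
Log2 level (signal relative to the array's 75th percentile, vertical axis) of 12 members by embryonic stage (horizontal axis), with array 1 as circles, array 2 as triangles and a line through the stage means. The 8 members that fell at E15.5 against E12.5 come first; Melk and Racgap1 are lowest at E13.5, and Cdk1 has its E15.5 arrays at 3.13 and 3.15, close to 3.22 and 3.14 at E12.5.

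At the kinetochore, where chromosomes bind microtubules, Nuf2 fell and Ndc80, its partner in the complex named after it, was not called. Nuf2 had levels of 2.01 and 2.09 at E12.5, 1.58 and 1.59 at E13.5, 1.1 and 1.22 at E14.5, and 1.23 and 1.05 at E15.5. Its duplicates were close at each stage, and E12.5, E13.5 and the later arrays did not overlap. The change was -0.91 ± 0.17 (adjusted p = 0.0086, limma, n = 2 arrays a stage). Ndc80 changed by 0.11 ± 0.18, and the difference between both genes was not tested. Without E12.5 array 2 or without E15.5 array 2, Nuf2 was not called.

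Cenpa, the histone H3 variant that marks centromeres, was at 1.47 and 1.59 at E15.5, against 1.45 and 1.43 at E12.5, a change of 0.090 ± 0.22. Cenpe, a kinetochore motor, changed by -0.43 ± 0.23 with the probe used and by -1.72 with a dimmer probe above background on 8 arrays. The chromosomal passenger complex corrects attachments. Of its 4 genes, 0 were called in any comparison, beside 17.4% of all genes lower and 17.6% higher over the span. Changes over the span there were all below 0: the largest was that of the scaffold gene Incenp, -0.67 ± 0.29, and the smallest that of Birc5, which encodes survivin, -0.19 ± 0.19. Under quantile normalization Birc5 stood at 0.096. Incenp was at 4.76 and 5.03 at E15.5, against 5.24 and 5.88 at E12.5, without overlap. Birc5 was at 5.12 and 5.06 at E15.5, against 5.20 and 5.35 at E12.5.

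Among spindle motors and microtubule proteins, Tpx2 fell, and the others were not called. Tpx2, which activates Aurora A on the spindle, had levels of 2.22 and 2.15 at E12.5, 1.80 and 1.62 at E13.5, 1.36 and 1.5 at E14.5, and 1.47 and 1.46 at E15.5. Its change was -0.73 ± 0.17 (adjusted p = 0.019, limma, n = 2 arrays a stage), and the call was lost without any 1 of the E12.5 or E15.5 arrays. Kif11, the motor that separates spindle poles, had levels of -0.12 and -0.39 at E12.5, -0.90 and -1.32 at E13.5, -1.31 and -0.63 at E14.5, and -0.81 and -1.5 at E15.5. The E12.5 arrays were the highest, but duplicates from E14.5 on lay far apart, and its change of -0.90 ± 0.34 was not called. A dimmer probe of Kif11, above background on 3 arrays, gave -1.56. With the mean over its probes Kif11 was at -1.23 and called. Nusap1, a microtubule-bundling protein, was at 2.21 and 2.29 at E15.5, against 1.97 and 2.0 at E12.5, a change of 0.27 ± 0.21.

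The genes of the central spindle and cytokinesis went different ways. Kif20a, a motor of the central spindle, had levels of 4.24 and 4.28 at E12.5, 3.83 and 3.84 at E13.5, 3.66 and 3.63 at E14.5, and 3.42 and 3.15 at E15.5. No arrays of neighbouring stages overlapped, and the change over the span was -0.98 ± 0.18 (adjusted p = 0.0073, limma, n = 2 arrays a stage), a call lost without E15.5 array 2. Kif23 and Racgap1, whose products form the centralspindlin complex, had changes above 0, of 0.42 ± 0.25 and 0.35 ± 0.20, and neither was called over the span. The other probe of Kif23 gave 0.51 and that of Racgap1 0.012.

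Prc1, which crosslinks microtubules of the central spindle, was at 3.19 and 3.57 at E15.5, against 3.68 and 3.65 at E12.5, a change of -0.28 ± 0.23. Ect2, the exchange factor that activates RhoA for the contractile ring, changed by -0.69 ± 0.23 with the probe used (adjusted p = 0.059, limma, n = 2 arrays a stage) and by 0.87 with a dimmer probe. Its direction over the span therefore depends on the probe. At E13.5 against E12.5 both probes of Ect2 were below 0, at -0.65 and -0.50.

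Top2a, the topoisomerase that untangles sister chromatids, had the largest fall of the members. It was at 2.21 and 2.08 at E12.5, 1.52 and 1.14 at E13.5, 0.34 and 1.20 at E14.5, and 1.02 and 0.14 at E15.5. The E12.5 arrays stood above all others, and duplicates of E14.5 and of E15.5 were far apart. The change was -1.57 ± 0.39 (adjusted p = 0.023, limma, n = 2 arrays a stage), 2.96-fold lower, and its other probe gave -1.93. Without either E12.5 array or without E15.5 array 2, Top2a was not called.

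**Figure D3:**
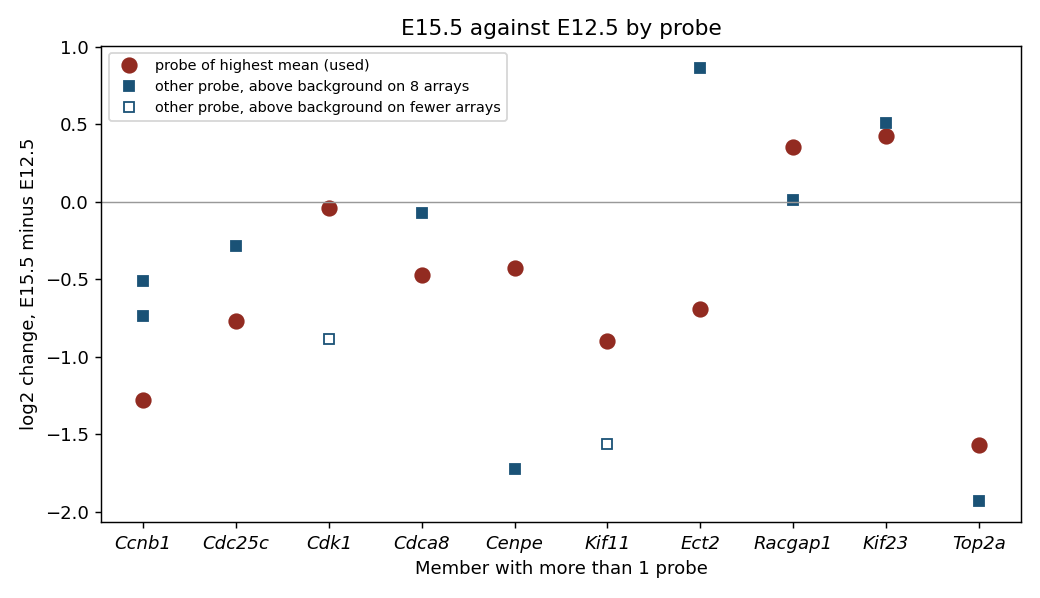
Log2 change at E15.5 against E12.5 (vertical axis) for the 10 members with more than 1 probe, with the probe used as a circle and other probes as squares, open where the probe was above background on fewer than 8 arrays. Of 11 other probes 10 have the sign of the probe used; Ect2 has opposite signs, -0.69 and 0.87, and Cenpe differs in size, -0.43 and -1.72.

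Between E13.5 and E14.5, a comparison that runs across slides, 1 member rose, 0 fell and 31 were not called. Of all genes, 6.44% were called higher and 6.04% lower. Changes were above 0 for 18 of 32 members, with a median of 0.12, against -0.019 for all genes. The median was 0.0031 without E14.5 array 1 and 0.068 without E13.5 array 2. The call was Racgap1, a GTPase-activating protein of centralspindlin, at 1.66 and 1.44 at E14.5, against 0.81 and 0.61 at E13.5. Both E14.5 arrays lay above both E13.5 arrays.

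Its change was 0.84 ± 0.20 (adjusted p = 0.045, limma, n = 2 arrays a stage), the other probe of Racgap1 gave 0.30, and the call was lost without any 1 of the 8 arrays. Kif23, its partner, changed by 0.86 ± 0.25 (adjusted p = 0.069, limma, n = 2 arrays a stage) and Nusap1 by 0.76 ± 0.21 (adjusted p = 0.065). At the other end, Ccnb2 changed by -0.80 ± 0.21 (adjusted p = 0.051, limma, n = 2 arrays a stage). These 3 were not called.

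Between E14.5 and E15.5, both on slide 3, 0 members were called by limma, against 0.559% of all genes higher and 0.0955% lower. At an unadjusted p under 0.05 there was 1 of 32 members, beside 2094 of all 21986 genes. It was Mad2l1, at 1.91 and 1.73 at E15.5, against 2.36 and 2.27 at E14.5. Its change was -0.49 ± 0.20 (adjusted p = 0.49, limma, n = 2 arrays a stage). Changes were below 0 for 25 of 32, with a median of -0.18, against 0.014 for all genes. That median was -0.022 without E14.5 array 1, -0.069 without E15.5 array 1 and -0.32 with arrays scaled to their medians.

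**Figure D4:**
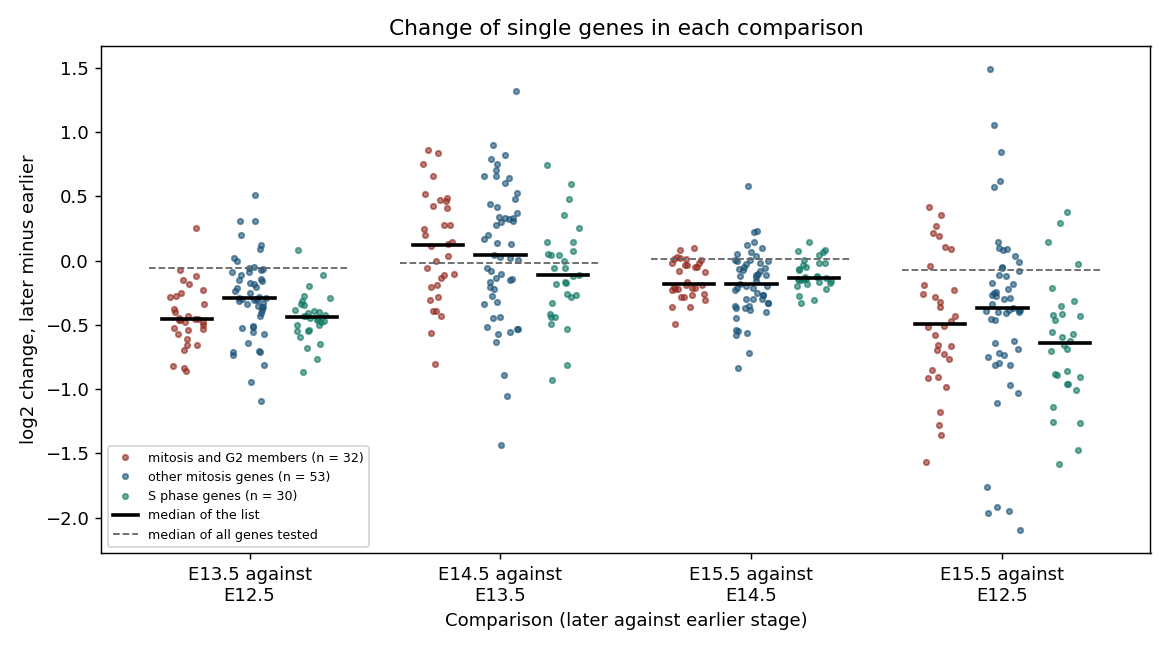
Log2 change, later minus earlier stage (vertical axis), of single genes in each of the 4 comparisons (horizontal axis) for the 32 members, 53 other mitosis genes and 30 S phase genes, with the median of each list as a bar and that of all genes tested as a dashed line. List medians at E13.5 against E12.5 lie at -0.46, -0.29 and -0.44 in that order, below the -0.057 of all genes.

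By the test over all 4 stages, 9 of 32 members were called, against 31.1% of all genes. They were Ccnb1, Ccnb2, Plk1, Melk, Ube2c, Nuf2, Tpx2, Kif20a and Racgap1. That number lay between 1 and 6 without 1 of the 8 arrays. Since the test includes the step across slides, it cannot tell slide and stage apart.

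Differences between the arrays of a stage on slide 3 went together in E14.5 and E15.5 when the array order of E15.5 was reversed. By like array numbers they ran opposite ways, so the signs below rest on the order taken. Of the 32 members, 28 (87.5%) had the same sign for E14.5 array 1 minus array 2 as for E15.5 array 2 minus array 1, against 76.6% of all genes. Across the members these differences had a Pearson r of 0.90, and across all genes 0.59, as a description of 4 arrays that share a slide. Top2a differed by -0.86 between E14.5 arrays 1 and 2 and by 0.88 between E15.5 arrays 1 and 2. Ccna2 differed by 1.20 and by -0.56. The largest difference between duplicates among the members was 0.71 at E12.5, 0.82 at E13.5, 1.20 at E14.5 and 0.88 at E15.5.

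**Figure D5:**
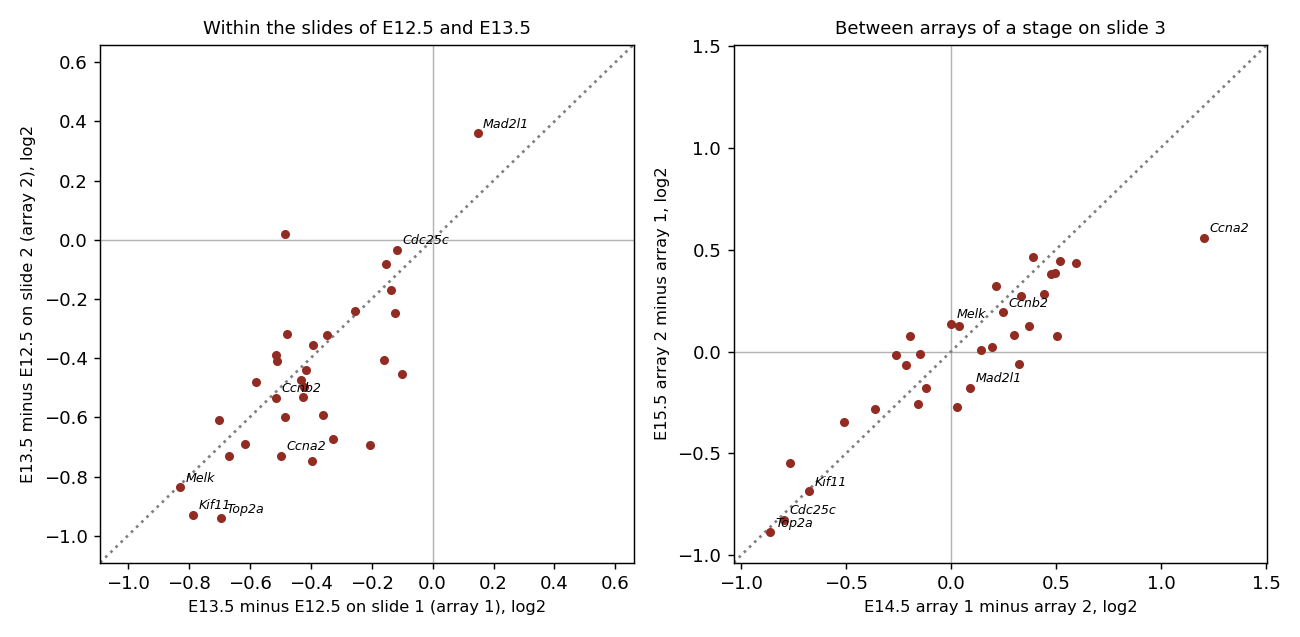
Each point is 1 of the 32 members. Left, log2 change at E13.5 against E12.5 on slide 1 (horizontal) and slide 2 (vertical), where 30 members are below 0 on both; right, E14.5 array 1 minus array 2 (horizontal) and E15.5 array 2 minus array 1 (vertical), where 28 have the same sign. Dotted lines mark equal values.

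The regulators of this gene class were looked at next. Of 21 such genes, 2 rose, 2 fell and 17 were not called at E15.5 against E12.5, where 17.6% of all genes were called higher and 17.4% lower. Mybl2, which encodes B-Myb, fell to 0.14 and 0.22 at E15.5, against 2.07 and 2.32 at E12.5, a change of -2.01 ± 0.24 (adjusted p = 0.0017, limma, n = 2 arrays a stage). Both E15.5 arrays lay below both E12.5 arrays. Rbbp4, a histone-binding subunit of MuvB, fell by 0.90, whereas Lin52, another MuvB subunit, rose by 0.74 and the pocket protein gene Rbl2, whose product p130 represses these genes in resting cells, rose by 0.95. Foxm1 changed by -0.42 and was not called. Mybl2 kept its call under all 18 alternatives run for it, whereas leaving out array 2 of E12.5 or array 1 of E15.5 left 1 regulator called, and leaving out array 2 of E15.5 left 2. Across settings 2 were called with arrays scaled to the median, without a filter on dim probes or in a fit of the 4 arrays alone, 1 under normexp background correction, and 9 under normexp with extreme background replaced. Lin52 and Rbbp4 were not called in the first 4 of these.

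Among 53 other mitosis genes, 3 rose and 12 fell at E15.5 against E12.5, beside 17.6% and 17.4% of all genes, with a median of -0.37, and 46 of 53 changes at E13.5 against E12.5 were below 0. The falls of smallest adjusted p were those of Sgo2a, a protector of centromeric cohesion, by 1.92, Cdca5, which encodes sororin, by 1.76, the condensin gene Smc2 by 1.96 and the microtubule polymerase gene Ckap5 by 2.10. Smc2 was at -0.077 and not called under either version of normexp, and at -1.05 with the mean over its probes. Ckap5 was at -0.64 with the mean over its probes and kept its call. The 3 that rose were Cdc25b, a phosphatase of mitotic entry, by 1.49, the kinase gene Pbk by 1.06 and Anln, a cytokinesis scaffold, by 0.85. With the mean over all its probes Anln changed by -0.20 and was not called, so its direction depends on the probe. Leaving out array 1 of E12.5 left 7 of these genes called, array 1 of E15.5 left 8, and array 2 of either stage left 4. Without a filter on dim probes 8 were called, and under normexp 3.

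Of 30 S phase genes, 13 fell and 0 rose at E15.5 against E12.5, where 17.4% of all genes were called lower and 17.6% higher, with a median of -0.64, and 29 of 30 changes at E13.5 against E12.5 were below 0. The cyclin E gene Ccne1 fell by 1.58 and the replication factor gene Mcm10 by 1.48. Leaving out array 1 of E12.5 or array 2 of E15.5 left 5 called, array 1 of E15.5 left 7, and array 2 of E12.5 left 8. Under quantile normalization 8 were called, without a filter on dim probes 8, and under normexp 2. The difference between these lists and the 32 members was not tested.

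Genes that hold the cycle back did not share a direction. Of 7 CDK inhibitor genes, 2 rose and 3 fell at E15.5 against E12.5, where 17.6% of all genes were called higher and 17.4% lower. Cdkn2c, which encodes p18, rose to 0.76 and 0.98 at E15.5, against -1.12 and -1.59 at E12.5, a change of 2.22 ± 0.23 (adjusted p = 0.0010, limma, n = 2 arrays a stage). Cdkn2b rose by 1.01. Cdkn1a (p21) fell by 1.75, Cdkn1b (p27) by 2.31 and Cdkn1c (p57) by 1.62. The probe of Cdkn1b was not well above background on E15.5 array 2, so its change rests there on 1 measured array, and under normexp it was -1.49. The number of inhibitor genes called was 3 under normexp.

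The CDK inhibitor genes Cdkn1a, Cdkn1b, Cdkn1c and Cdkn2a fell, and Cdkn2c rose, at E14.5 against E13.5, the step across slides. Of all genes, 6.04% were called lower and 6.44% higher there. Each of these inhibitor calls was lost without either E13.5 array and without E14.5 array 1. At E13.5 against E12.5, 1 of 7 was called, beside 2.68% of all genes higher and 1.3% lower. It was Cdkn2b, which rose by 1.44, a call lost without any 1 of the E12.5, E13.5 and E15.5 arrays. Of 6 genes of G1 cyclins and their kinases, Cdk2 rose by 1.43 and Ccnd1 and Cdk6 fell by 1.60 and 1.07 at E15.5 against E12.5. In that comparison 17.6% of all genes were called higher and 17.4% lower. Leaving out array 2 of either stage left 1 of the 6 called, as did normexp. Cdk6 was at -0.35 and not called with the mean over its probes, and Cdk2 was at 0.87 under normexp.

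Markers of cell types also moved between stages, and their part in the changes above was not tested. The summed signal relative to the 75th percentile over 7 endothelial markers was 11.8 and 11.8 at E13.5, against 18.9 and 19.3 at E12.5. Over 9 of 10 erythroid markers it was 202 and 320 at E13.5, against 282 and 479 at E12.5, with overlap. At E15.5 the endothelial sum was 8.93 and 8.60 and the erythroid sum 193 and 208. A few bright probes can carry such sums, so counts of single markers are given as well. Of the endothelial markers 7 of 7 were below 0 at E13.5 against E12.5, with 1 called, and at E15.5 against E12.5 3 fell and 0 rose. Of the erythroid markers 3 fell and 0 rose at E13.5, and 4 fell and 1 rose at E15.5, each against E12.5. Of all genes, 1.3% were called lower and 2.68% higher at E13.5, and 17.4% and 17.6% at E15.5.

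Over 10 germ cell markers the sum was 126 and 126 at E13.5, against 74.9 and 70.3 at E12.5, and at E15.5 it was 97.4 and 122. Single germ cell markers were split: 5 rose and 1 fell at E13.5, whereas 3 rose and 4 fell at E15.5, each against E12.5, with changes from -4.40 to 7.44 at E15.5. Over 7 Leydig cell markers it was 101 and 130 at E13.5, against 31.5 and 24.4 at E12.5, and 160 and 134 at E15.5, and 6 of the 7 rose at either stage against E12.5. Lhcgr, 1 of the 7, was not well above background on either E12.5 array, so its change against that stage has no measured starting level. Over 9 Sertoli cell markers the sum was 104 and 104 at E13.5 and 97.1 and 113 at E15.5, against 88.5 and 82.6 at E12.5. Single Sertoli cell markers did not follow that sum at E15.5 against E12.5: 7 of 9 changes were below 0, with a median of -0.26 and a range from -2.45 to 1.89, and 2 rose and 1 fell. The counts of germ, Leydig and Sertoli cell markers stand beside 2.68% of all genes called higher and 1.3% lower at E13.5. At E15.5 these shares of all genes were 17.6% and 17.4%.

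Sums over 5 mesonephros markers were 1.63 and 2.04 at E13.5, against 4.38 and 4.01 at E12.5. Sums over 5 of 7 macrophage markers were 1.40 and 1.85 at E13.5, against 1.31 and 1.5 at E12.5. Sums over 3 of 5 adrenal markers were 0.466 and 0.464, against 0.367 and 0.310. At E15.5 against E12.5, 1 mesonephros marker rose and 1 fell, with changes from -5.65 to 1.56, and 2 macrophage and 2 adrenal markers rose. Of all genes, 17.6% were called higher and 17.4% lower there. Pax8, a mesonephros marker, was not well above background on either E12.5 array, nor was Slc6a2, an adrenal marker, on any array before E15.5.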

How the data were processed

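Processed values of 8 scanner files (2 arrays for each of 4 stages) were used. Per the file headers, the authors' processed intensity had background and spatial trends removed by Agilent Feature Extraction, 9.1.3.1 on slides 1 and 2 and 9.5.3.1 on slide 3 (the submitters' processing notes name 9.5), with no scaling between arrays. A second table the authors deposited holds linear ratios, 1 value per probe and stage, whose centring is unknown and which served only to compare directions and medians.

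Spots of a probe were averaged, and each array was scaled to its 75th percentile over 41174 probes on the log2 scale. A probe was kept if both arrays of some stage had it well above background. Of all probes 22951 had 1 symbol through RefSeq accessions. All 8 arrays entered 1 limma 3.58.1 fit (R 4.3.3; lmFit, eBayes) with 1 mean a stage, and p-values, Benjamini-Hochberg adjusted over 21986 genes, were called under 0.05. They measure the spread between duplicates, and the number of arrays limits precision: 4 residual degrees of freedom plus 2.57 of the prior. The script was tested on simulated data.

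The members and lists were chosen with earlier results of these data known. Named in full were, per role, the members of largest and smallest change at E15.5 against E12.5 and those called; of other lists, up to 4 by adjusted p, with those singled out for their role chosen after their values were seen. Slides and arrays pair E12.5 with E13.5 through the barcodes of the files. The normexp alternative used median spot signals, since mean signals were not analysed here.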

Additional observations from a re-analysis of the deposited data

How the results depend on the processing

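Precision was limited by 2 arrays a stage, and in the comparisons across slides the slide and the stage cannot be told apart. Of 165 summary values recomputed, 107 stayed within 1.5 times the main count, or within 1 SD (0.055) of the main median. The cause was not tested for the other values. Counts that stayed can still include lost calls. A count could not reverse by this rule, and 0 medians did. Some medians could not move, as with the slide as a block or without an array of a stage not compared. The 107 is thus not a measure of stability. Among single genes at E15.5 against E12.5, 9 values reversed. Cdk1 was 0.074 and Birc5 0.096 under quantile normalization, Cdk1 was 0.086 under normexp with or without extreme background replaced, and Ect2 was 0.087 and Anln -0.20 with the mean over all probes. With 1 array left out, Cdk1 ranged from -0.084 to 0.0020, Bub1 from -0.0038 to 0.44 and Ndc80 from -0.023 to 0.23. Of these genes Anln alone was called, in the main setting. Another 97 changes of sign were in members' day-to-day changes not printed here. With 1 array left out, the members called ranged from 0 to 0 at E13.5 against E12.5, from 0 to 1 at E14.5 against E13.5, from 0 to 0 at E15.5 against E14.5, from 1 to 8 at E15.5 against E12.5 and from 1 to 6 over all stages. In the same order of comparisons their median change ranged from -0.47 to -0.42, from 0.0031 to 0.14, from -0.18 to -0.022 and from -0.50 to -0.41. Where this left 1 array in a stage, that array was assumed to vary like the other stages.

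The call at E13.5 against E12.5 was lost, with 0 members called, with arrays scaled to the median, under normexp, without a filter on dim probes, in a fit of the 4 arrays alone, with the slide as a replicate block, and with the 75th percentile over spots. In that order 727, 2, 419, 139, 981 and 859 of all genes were called. The call at E14.5 against E13.5 was lost, with 0, under the first 4 of these settings, with the mean over all probes of a gene and with the slide as a random block. In that order 1881, 0, 872, 779, 2651 and 2328 of all genes were called. In this comparison 3 members were called under quantile normalization and 2 with the stricter filter of detection on all 8 arrays. Under normexp with extreme background replaced there were 4. Of all genes 3094, 2545 and 4030 were called in these 3 settings, against 2745 in the main setting. At E15.5 against E12.5 the number of members called was 1 under normexp, beside 1153 of all genes, against 7703 in the main setting. Some members were called there only in other settings. These were Ect2 under quantile normalization or with the stricter filter, and Cenpe and Kif11 with the mean over all probes. Under normexp with extreme background replaced they were Kif11, Kif2c and Ect2. Over all stages the number of members called was 2 with arrays scaled to the median, 0 under normexp, 1 without a filter and 5 with the slide as a random block. Of all genes 5904, 519, 4794 and 5964 were called in that order, against 6827 in the main setting. The replicate block also left 0 members called at E15.5 against E14.5 and could not be fitted across slides.

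The median change at E13.5 against E12.5 was -0.37 with arrays scaled to the median, -0.64 under normexp and -0.58 in the authors' deposited table. At E14.5 against E13.5 it was 0.21 under normexp. At E15.5 against E14.5 it was -0.32 with arrays scaled to the median and -0.43 in the authors' deposited table. At E15.5 against E12.5 it was -0.31 under quantile normalization, -0.43 under normexp with or without extreme background replaced, and -0.81 in the authors' deposited table. The median of all genes was -0.13 at E15.5 against E14.5 and -0.11 at E15.5 against E12.5 with arrays scaled to the median, and -0.18, 0.028, -0.23 and -0.39 in that table; relative to it the members' medians were -0.40, 0.14, -0.19 and -0.42 with either. Normexp as planned rested on E13.5 array 2 with 3 spots of extreme background, so the version that replaced them, like the percentile over spots, was chosen after seeing the data. Genes called at E13.5 against E12.5 numbered 2 under normexp as planned, against 874 in the main setting.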
